A study of Sus scrofa with 6 samples.

Results

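Heat shock and chaperone genes encode the proteins that help other proteins fold, keep them folded and hand damaged ones on for disposal. The set described here holds 38 genes, chosen by name for those roles, of which 37 were listed among the 17201 genes counted in pig prefrontal cortex. All 37 passed the filter on low counts, with at least 250 counts for each gene in each library. HSP90AA1, the stress-inducible cytosolic HSP90, is not analysed here.

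RNA was sequenced from the prefrontal cortex of 6 pigs (Sus scrofa) aged 3 months, 1 library per animal. In 3 of them (animals 391, 392 and 393) valproic acid (VPA), an anticonvulsant that inhibits histone deacetylases, had been given at 75 mg/kg in early gestation. The other 3 (401, 402 and 408) were controls labelled as having no treatment. The series title names an autism pig model, and the labels give no strain, sex, litter, route or gestational day.

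In the cell, chaperones work in relays. HSF1, the main heat shock transcription factor, switches on many of their genes when unfolded protein builds up. HSP70 proteins bind unfolded stretches, J-proteins (HSP40) bring them clients and drive their ATPase, and HSP110-type exchange factors release the bound nucleotide so that the cycle can restart. HSP90 finishes the folding of kinases and hormone receptors, CCT is a ring that folds actin and tubulin, and the endoplasmic reticulum (ER) and mitochondria hold chaperones of their own. Neurons depend on the same machinery at the synapse, where HSPA8 and the J-proteins DNAJC5 and DNAJC6 act on SNARE proteins and on clathrin coats. Histone deacetylase inhibitors, VPA among them, are known to raise several ER and cytosolic chaperones in cultured cells during exposure. Here the RNA was taken months after the exposure, and the comparison is between animals.

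The libraries held 16285517 to 17989032 counts. Counts were scaled to each library's total (counts per 1e6, CPM) to compare libraries, and FPKM, which also divides by gene length, was used to compare genes. Neuronal and glial markers were present in all libraries, as the cortex label requires: no listed marker of neurons, astrocytes, oligodendrocytes, their precursors or microglia had fewer than 182 counts in any library. VPA 393 stood apart in markers of striatal projection neurons, a population of the striatum, which lies beneath the cortex. Their summed level over 6 genes was 427 CPM in VPA 393 and 140 and 151 CPM in VPA 391 and 392. Controls had 107 to 118 CPM, so the sum was higher in every VPA library. Summed markers of neurons (6038 to 6170 CPM in VPA, 6532 to 6696 in controls, 5 genes) and of glutamatergic neurons (1318 to 1410 and 1483 to 1527, 5 genes) were lower in every VPA library. Summed GABAergic neuron markers were higher in every VPA library (517 to 541 CPM and 480.3 to 490.0, 5 genes). GAD1 made up most of that sum (352 to 367 CPM in VPA, 323 to 337 in controls). GAD2, SLC32A1, DLX1 and LHX6 each overlapped between the groups. Summed markers of oligodendrocytes overlapped (13958 to 15788 and 10726 to 14464, 6 genes), as did those of astrocytes (4730 to 5995 and 4502 to 5143, 5 genes). By gene, every VPA library was above every control in 5 of the 6 oligodendrocyte and 2 of the 5 astrocyte markers (12.1% of all tested genes). Summed oligodendrocyte precursor markers were higher in every VPA library (576 to 645 CPM and 478 to 538, 4 genes), although CSPG4 and OLIG2 overlapped. EIF1AY, a Y-linked gene, had 450 to 548 counts in 4 libraries and 0 and 2 in VPA 392 and control 401. Members were therefore also compared among those 4 libraries alone. In bulk tissue, fewer cells of a type and less RNA per cell cannot be told apart.

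Levels per length spanned more than 2 orders of magnitude among the members. HSPA8, the constitutive HSP70, had a mean of 1149 FPKM over the 6 libraries, rank 12 of all 17201 listed genes. HSP90AB1, the constitutive cytosolic HSP90, had 597 FPKM and rank 41. Next came DNAJA1, a J-protein partner of HSPA8, at 234 FPKM, and the small heat shock protein gene CRYAB at 199. At the low end were HSF2 and HSF1 (15.7 and 15.6 FPKM), HSPA4L (15.1), DNAJA2 (14.8), HSPA14 (9.28) and BAG3 (7.49). By counts, the 37 genes together took 1.14% to 1.26% of each library, and HSPA8 and HSP90AB1 made up 35.9% to 37.7% of that. The summed level was 11788 ± 423 CPM in VPA and 12285 ± 415 CPM in controls (mean ± SD, n = 3 each), with overlapping ranges.

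**Figure D1:**
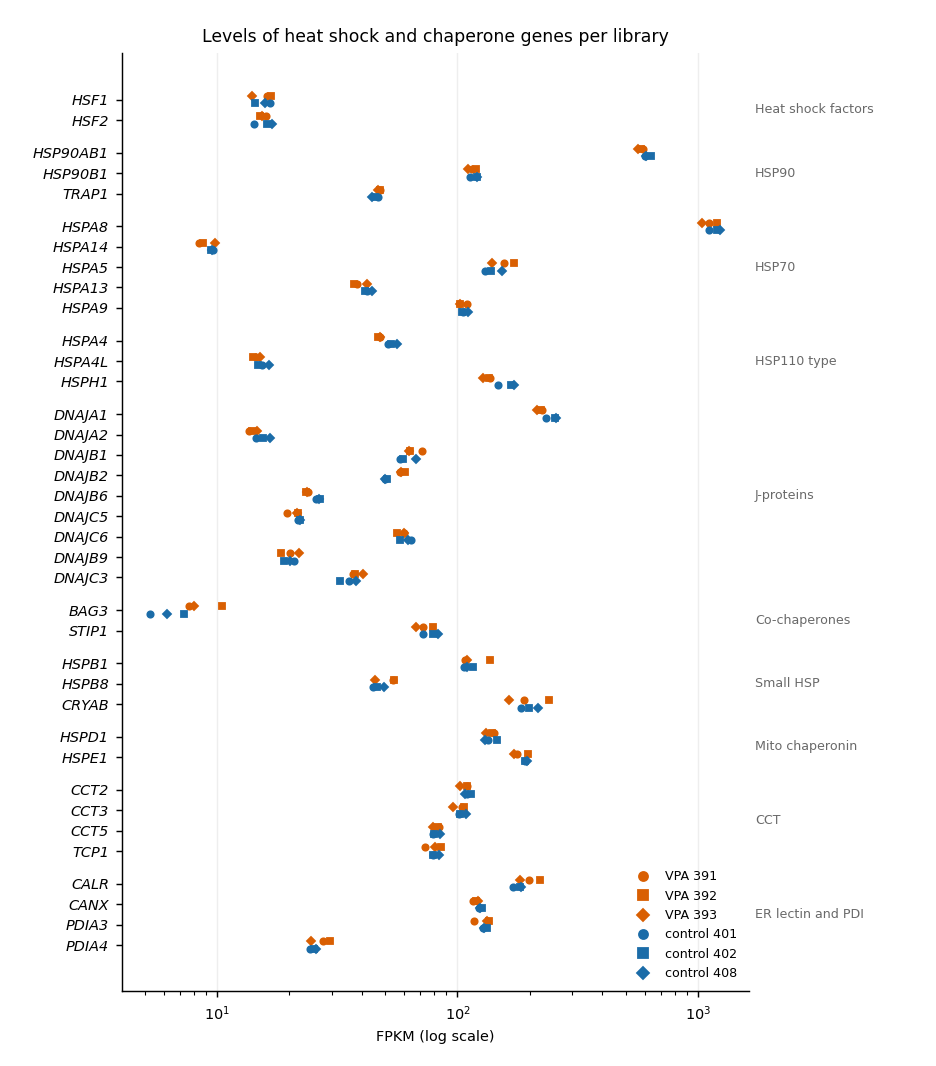
FPKM (log axis) of each member in each of the 6 libraries, grouped by role, with VPA libraries in orange and controls in blue and 1 symbol per animal. HSPA8 and HSP90AB1 lie to the right of all other members and BAG3 farthest left, and for most genes the 6 points lie close together.

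No member passed the test between VPA and control cortex. In simulated data the same fit recovered 20% of genes given the smallest change tried, so the lack of a call does not show the lack of a small difference. In edgeR's quasi-likelihood fit over 14373 genes, 0 of the 37 had an adjusted p under 0.05, where 52 of all genes (0.362%) had; limma on voom weights and limma on log2 FPKM also gave 0 members. DESeq2 gave 4 members among its 444 calls (3.64% of 12198 genes): HSPH1 (adjusted p = 0.000895), HSPA4 (0.040), DNAJA1 (0.033) and DNAJB2 (0.017). At an unadjusted p of 0.05 in edgeR, 6 members were lower in VPA (16.2%, against 7.45% of all genes) and 3 were higher (8.11%, against 8.69%). In 6 members every VPA library was below every control (9.07% of all tested genes were so) and in 3 every VPA library was above (12.1% of all). Of the 37 log2 fold changes 25 were negative, with a median of -0.04, where 7113 of all 14373 were negative and the median was 0.0018. The member median stayed between -0.09 and -0.02 under every alternative run.

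**Figure D2:**
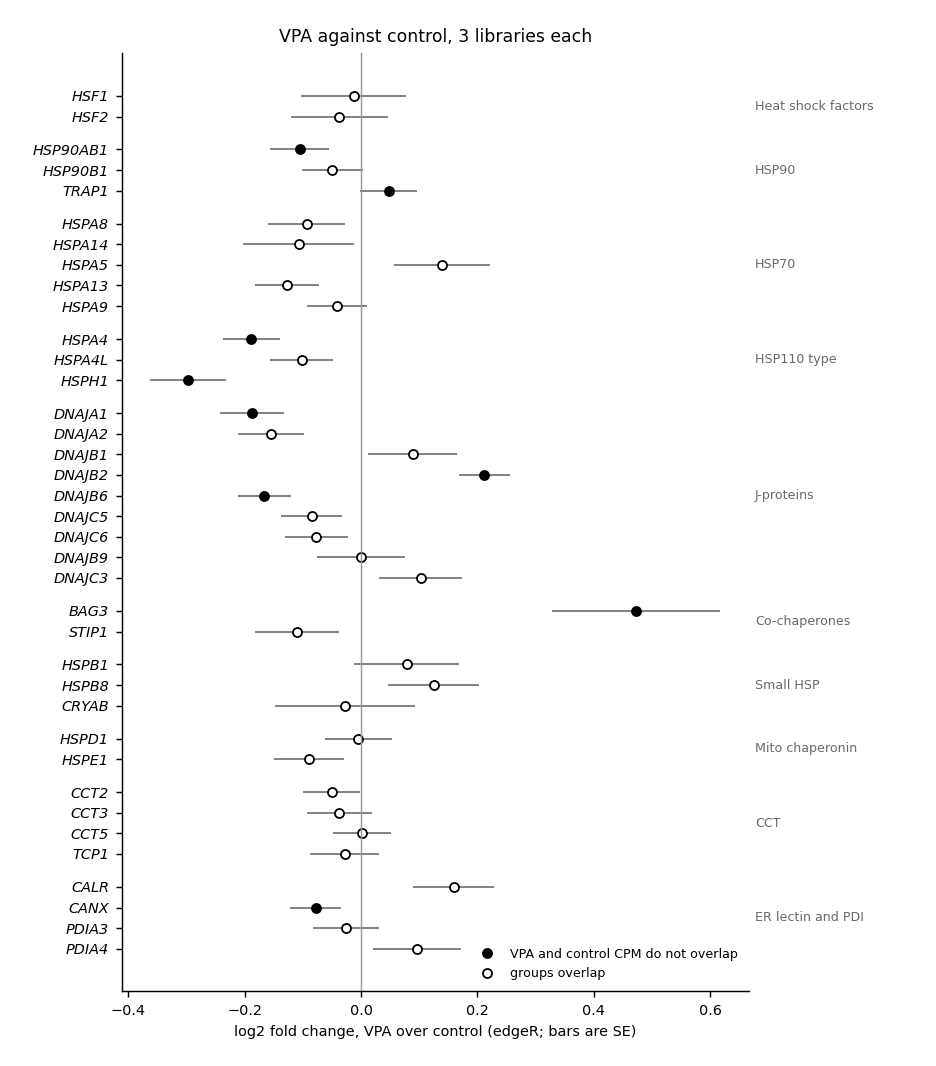
Log2 fold change of VPA over control for each member with its standard error (edgeR, 3 libraries a group), grouped by role. Filled points mark the 9 genes whose VPA and control CPM do not overlap, from HSPH1 at -0.30 to BAG3 at 0.47, and most of the other points lie near 0.

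All 3 HSP110-type exchange factors had negative values, with a median of -0.19, the lowest of any role. HSPH1, the HSP110 protein that restarts the HSP70 cycle and is itself strongly heat-inducible, had 505, 499 and 472 CPM in VPA 391, 392 and 393 and 545, 619.6 and 634 in controls 401, 402 and 408. All VPA libraries were below all controls, with control 401 the closest to them. The means were 492 ± 17.7 and 599.5 ± 47.8 CPM (log2 fold change -0.30 ± 0.065 SE, adjusted p = 0.073 in edgeR). Leaving out control 401 gave -0.37 (adjusted p = 0.035), and leaving out any other library gave -0.25 to -0.33 with adjusted p of 0.13 to 0.23. HSPA4, a constitutive member of the same branch, had 229.7, 226 and 231 CPM in VPA and 248, 256 and 272 in controls (-0.19 ± 0.049, adjusted p = 0.11). Its VPA libraries lay close together (SD 2.66 CPM), again below every control. HSPA4L, its paralog, had 121, 119 and 127 CPM in VPA and 129, 124 and 138 in controls, where VPA 393 exceeded control 402 (-0.10 ± 0.055, adjusted p = 0.39).

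All 5 HSP70 members, of the cytosol, ER and mitochondria, overlapped between the groups. HSPA8 had 2499, 2690.2 and 2340.4 CPM in VPA and 2487, 2696 and 2783 in controls (-0.09 ± 0.066, adjusted p = 0.53). VPA 392 was level with control 402, and VPA 393 was the lowest library of all. HSPA14, a ribosome-associated HSP70 and the lowest of the family, had 14.9, 15.5 and 17.5 CPM in VPA and 17.2, 16.9 and 17.1 in controls (-0.11 ± 0.096, adjusted p = 0.63). HSPA13, a microsomal HSP70, had 153, 149 and 168 CPM against 168, 164 and 176 (-0.13 ± 0.055, adjusted p = 0.29), and HSPA9, the mitochondrial HSP70, stood at -0.04 ± 0.051. HSPA5, the ER member also known as BiP, was the only one of the 5 HSP70 members with a positive value and is described with the ER genes below.

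J-proteins, which choose the clients of HSP70, divided by gene and not as a family. DNAJA1 had 636, 632 and 604 CPM in VPA and 660.4, 722 and 730.2 in controls (-0.19 ± 0.055, adjusted p = 0.14). DNAJB6, which holds back polyglutamine aggregation, had 146, 144 and 144 CPM in VPA and 157, 163 and 162 in controls (-0.17 ± 0.046, adjusted p = 0.12). Both genes were lower in every VPA library than in any control, and the spread among the VPA libraries of DNAJB6 was 0.856% of its mean. DNAJA2, the paralog of DNAJA1, had 149.7, 153 and 161 CPM in VPA and 159.9, 170.2 and 182 in controls (-0.15 ± 0.058, adjusted p = 0.22). VPA 393 lay just above control 401 there, and with TMM scaling factors in the CPM the groups did not overlap.

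DNAJB2 went the other way. This J-protein, which is enriched in neurons and steers ubiquitinated clients to the proteasome, had 192, 201 and 194 CPM in VPA and 166, 170.1 and 167 in controls. The gap between the lowest VPA and the highest control library was larger than the range within either group. Its means were 196 ± 4.60 and 168 ± 2.23 CPM (0.21 ± 0.044, adjusted p = 0.067), the lowest adjusted p of any member, and the value ran from 0.19 to 0.22 with each library left out in turn. DNAJB1, the heat-inducible J-protein, had 82.1 to 93.2 CPM in VPA and 75.2 to 87.9 in controls, with overlap (0.09 ± 0.077, adjusted p = 0.62). The synaptic J-proteins also overlapped. DNAJC5, the vesicle chaperone CSP alpha, had a log2 fold change of -0.08 ± 0.052, and DNAJC6, the clathrin-uncoating factor auxilin, had one of -0.08 ± 0.054 (adjusted p = 0.46 and 0.52). In the ER, DNAJB9 had one of 0.00016 ± 0.075 and DNAJC3 one of 0.10 ± 0.072.

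**Figure D3:**
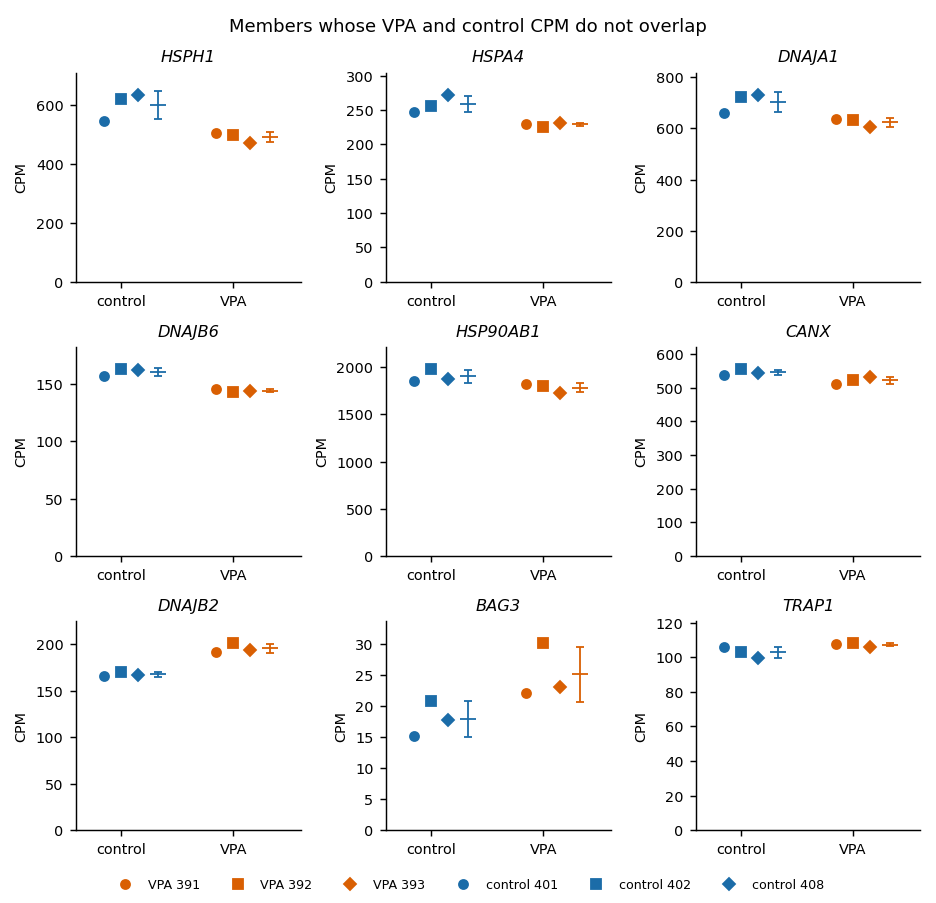
CPM of the 9 members whose groups did not overlap, 1 point per library, with mean and SD (n = 3) beside the points and axes that start at 0. HSPH1, HSPA4, DNAJA1, DNAJB6, HSP90AB1 and CANX lie lower in VPA, DNAJB2, BAG3 and TRAP1 higher, and the groups of TRAP1, HSP90AB1 and CANX lie closest together.

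Among the HSP90 genes, HSP90AB1 had 1823, 1797 and 1732 CPM in VPA and 1852, 1978 and 1880.4 in controls (-0.11 ± 0.051, adjusted p = 0.34). The groups did not overlap, although VPA 391 and control 401 differed by little. HSP90B1, the ER HSP90 (GRP94), had 391 to 420.5 CPM in VPA and 398 to 427 in controls (-0.05 ± 0.052, adjusted p = 0.70). TRAP1, the mitochondrial HSP90, had 108, 108 and 106 CPM in VPA and 106, 103 and 99.8 in controls (0.05 ± 0.049, adjusted p = 0.69). VPA 393 exceeded control 401 by less than 1 CPM, and with TMM factors in the CPM the groups overlapped. STIP1, the HOP protein that passes clients from HSP70 to HSP90, had 241, 265 and 225 CPM in VPA and 240.5, 264 and 278 in controls (-0.11 ± 0.072, adjusted p = 0.49).

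BAG3 had the largest log2 fold change of any member and the largest standard error. BAG3 couples HSP70 and the small heat shock protein HSPB8 to autophagy, and its gene is an HSF1 target. It had 22.0, 30.0 and 23.1 CPM in VPA 391, 392 and 393 and 15.1, 20.8 and 17.7 in controls 401, 402 and 408. VPA 391 exceeded control 402 by little, while VPA 392 stood well above both other VPA libraries. The means were 25.03 ± 4.36 and 17.9 ± 2.85 CPM (0.47 ± 0.14, adjusted p = 0.15), and the value was 0.32 without VPA 392. Among the 4 libraries with EIF1AY counts it was 0.21 (adjusted p = 0.51), while the log2 ratio of VPA 392 to control 401 was 0.99.

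The small heat shock proteins, which hold unfolded proteins without ATP, were highest in VPA 392 in all 3 cases. CRYAB had 233, 297 and 202 CPM in VPA and 227, 245 and 267 in controls (-0.03 ± 0.12, adjusted p = 0.94). Both the highest and the lowest library of CRYAB were VPA libraries, 392 and 393. HSPB1 had 67.4, 85.5 and 68.6 CPM in VPA and 66.6 to 72.6 in controls (0.08 ± 0.090, adjusted p = 0.73). HSPB8, the partner of BAG3, had 112, 112 and 93.9 CPM in VPA and 91.6, 95.3 and 102 in controls (0.12 ± 0.078, adjusted p = 0.47). VPA 392 was also the library highest in 4 of 5 astrocyte, 5 of 5 endothelial and 4 of 4 mural cell markers. Their summed levels in it were 5995, 337 and 276 CPM, against 4502 to 5393, 276 to 292 and 186 to 237 in the other libraries. The part of these cells in the BAG3 and small heat shock protein levels was not tested.

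Of the ER chaperones, HSPA5, CALR and PDIA4 had positive values and CANX and PDIA3 negative ones, and none passed the test. ER members described above had log2 fold changes of -0.05 (HSP90B1), -0.13 (HSPA13), 0.00016 (DNAJB9) and 0.10 (DNAJC3). HSPA5, the ER HSP70 that also holds the unfolded protein sensors in check, had 409, 449 and 364 CPM in VPA and 341, 359.9 and 399 in controls (0.14 ± 0.082, adjusted p = 0.44). CALR, a calcium-binding lectin chaperone, had 381, 424 and 350.4 CPM in VPA and 327, 348 and 351 in controls (0.16 ± 0.070, adjusted p = 0.30). PDIA4, a disulfide isomerase, had 78.6, 84.8 and 70.1 CPM in VPA and 69.7, 72.5 and 74.2 in controls (0.10 ± 0.075, adjusted p = 0.57). In all 3 genes the VPA libraries stood in the order 392, 391, 393, with VPA 393 inside the control range. CANX, the membrane-bound partner of CALR, had 509.6, 524 and 531 CPM in VPA and 538, 554 and 544 in controls, below every control (-0.08 ± 0.044, adjusted p = 0.42). PDIA3, which works with both lectins, overlapped at 178 to 206 CPM in VPA and 195 to 201 in controls (-0.03 ± 0.056, adjusted p = 0.86).

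Without VPA 393, the library with the highest striatal markers, HSPA5, CALR, PDIA4 and HSPB8 had no overlap between groups. Their log2 fold changes were then 0.22, 0.23, 0.17 and 0.21 (adjusted p = 0.20, 0.13, 0.25 and 0.15 in edgeR). Without VPA 392 the same 4 values were 0.06, 0.08, 0.03 and 0.08. With VPA 393 left out, 7 members had every VPA library above the controls and 10 had them below, where 18.1% and 15.9% of all tested genes did. Leaving out control 408 also gave 7 above, HSPA5 and CALR among them (16.5% of all), and leaving out control 401 gave 11 below, HSPA8 among them (14.6% of all). HSPA5, CALR, PDIA4 and HSPB8 were picked out after their values were seen. Among the 4 libraries with EIF1AY counts, HSPA5 had a log2 fold change of 0.0063, CALR 0.04, PDIA4 -0.0023 and HSPB8 0.04. The log2 ratios of VPA 392 to control 401, the pair without those counts, were 0.40, 0.38, 0.28 and 0.29. With 1 library on each side that ratio has no replicate check. Other members had opposite signs in the 4 libraries and in that pair: HSPA8 had -0.20 and 0.11, STIP1 -0.24 and 0.14, HSPB1 -0.08 and 0.36, and CRYAB -0.26 and 0.39. Whether the difference between VPA and control depends on EIF1AY was not tested for these genes.

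**Figure D4:**
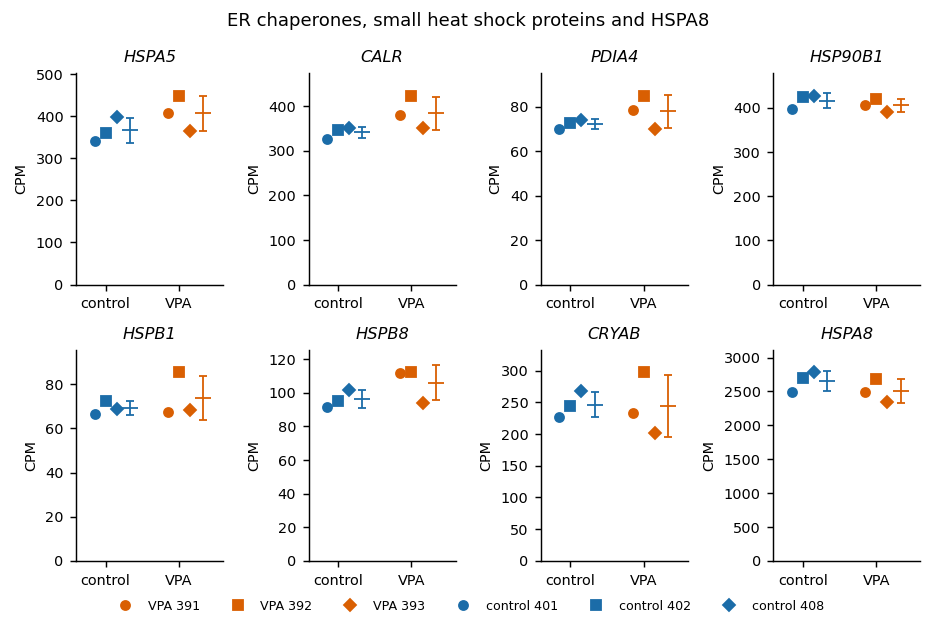
CPM of 4 ER chaperone genes, 3 small heat shock protein genes and HSPA8 by library, with mean and SD (n = 3) beside the points and axes that start at 0. VPA 392 (orange square) is the highest VPA library in each panel or level with VPA 391 (HSPB8), and VPA 393 (orange diamond) the lowest in all but HSPB1.

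For the genes without overlap the sign in both sets of animals is fixed by how they were chosen, and only the sizes are given here. HSPH1 had a log2 fold change of -0.38 among the 4 libraries with EIF1AY counts and a log2 ratio of -0.13 between VPA 392 and control 401. The same values were -0.22 and -0.13 for HSPA4, -0.25 and -0.06 for DNAJA1, and -0.19 and -0.13 for DNAJB6. For HSP90AB1 they were -0.14 and -0.04, and for CANX -0.10 and -0.04. DNAJB2 had 0.18 and 0.28. None of these passed in the 4 libraries, where adjusted p ran from 0.091 for HSPH1 to 0.50 for CANX among the 7 genes. Summed markers of neurons and of glutamatergic neurons were also lower in every VPA library. RBFOX3 and NEFL of the neuron list overlapped, as did NEUROD2 and TBR1 of the glutamatergic list. Summed markers of GABAergic neurons were higher, and of that list only GAD1 did not overlap. Those of oligodendrocyte precursors were higher too, with CSPG4 and OLIG2 of that list overlapping. The part of these cells in the 6 lower genes was not tested.

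No chaperonin member separated the groups. HSPD1 and HSPE1, the mitochondrial HSP60 and its HSP10 lid, whose genes sit head to head, both overlapped between the groups. HSPD1 had 285, 277 and 263 CPM in VPA and 268, 292 and 260.5 in controls (-0.0049 ± 0.058, adjusted p = 0.98). HSPE1 had 100.3, 112 and 97.4 CPM in VPA and 108, 108 and 110.1 in controls (-0.09 ± 0.061, adjusted p = 0.51). CCT2, CCT3, CCT5 and TCP1, subunits of the cytosolic CCT ring, had log2 fold changes of -0.05, -0.04, 0.0017 and -0.03. CCT2 had 221, 222 and 207 CPM in VPA and 221, 229 and 218 in controls. TCP1 had 142, 165 and 157 CPM in VPA and 154, 154 and 162 in controls, with VPA libraries at both ends. Each ring is built of different subunit types in equal number, so the other subunits were read beside them. CCT4, CCT6A and CCT7, no members of the set, stood at -0.05, -0.09 and -0.05. CCT8 had 218, 208 and 217 CPM in VPA and 246, 247 and 265 in controls (-0.25 ± 0.049, adjusted p = 0.062), with no overlap.

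HSF1, the master regulator, and HSF2, its developmental relative, did not separate the groups. HSF1 had 38.7, 40.1 and 33.5 CPM in VPA and 39.7, 34.6 and 37.9 in controls (-0.01 ± 0.091, adjusted p = 0.96). HSF2 had 39.6, 37.2 and 38.1 CPM in VPA and 35.2, 39.8 and 41.9 in controls (-0.04 ± 0.083, adjusted p = 0.87). For both genes the controls alone covered most of the range. Transcript level does not show HSF1 activity, which is set largely by the state of the protein.

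Libraries of the same group differed across many members at once. In controls, 408 was the highest library for 22 of the 37 genes and 401 the lowest for 24, where 32.2% and 31.0% of all tested genes were so. In VPA, 392 was the highest for 19 and 393 the lowest for 19, against 31.9% and 30.4% of all genes. The order 408, 402, 401 held in 16 members, among them HSPH1, DNAJA1, HSPA8, HSPA5, DNAJB1, STIP1 and CRYAB (15.5% of all genes). The order 392, 391, 393 held in 13, among them HSPA8, HSPA5, STIP1, HSPB8, CRYAB, CALR and PDIA4 (16.1% of all). Animal 401 and animal 392 are the pair without EIF1AY counts, and they lie at opposite ends of their groups. These counts describe the libraries and were not tested, since members share libraries.

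**Figure D5:**
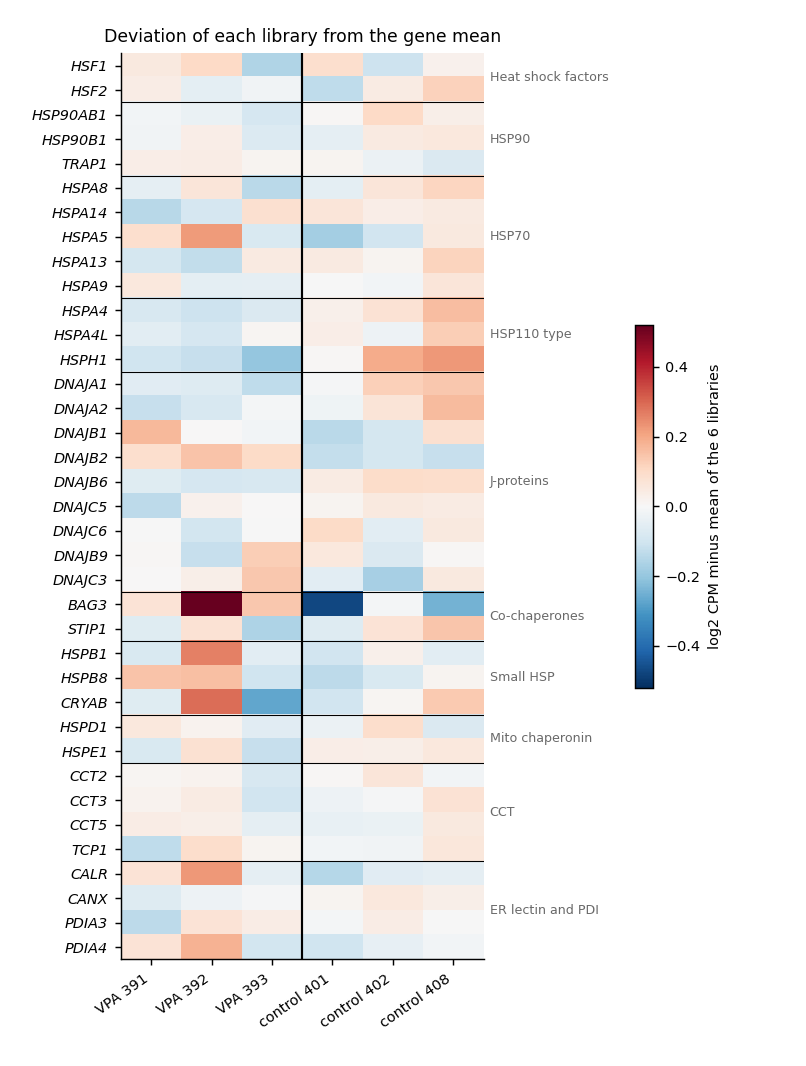
Log2 CPM of each member in each library minus the mean of that gene over the 6 libraries, red above and blue below, rows grouped by role. HSPH1, HSPA4, DNAJA1 and DNAJB6 are blue across VPA, DNAJB2 and BAG3 red across VPA, and HSPA5, CALR, PDIA4, HSPB1 and CRYAB are reddest in VPA 392.

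A wider list of 140 chaperone and protein folding genes outside the members gave 127 tested genes, of which 0 were called in edgeR. At an unadjusted p of 0.05 in edgeR, 1 was higher (0.787%, against 8.69% of all genes) and 5 were lower (3.94%, against 7.45%). DESeq2 called 2, where it called 3.64% of all genes, and limma with voom weights or FPKM called 0. Of the 127, 78 had negative log2 fold changes (61.4%, against 49.5% of all tested genes), with a median of -0.04. Besides CCT8, the lowest p was that of HSPA12A, a divergent HSP70 of brain, with 437, 419.5 and 424 CPM in VPA and 471, 498 and 504 in controls (-0.21 ± 0.049, adjusted p = 0.079). The stress-inducible HSP70 itself, counted under the pig symbol HSP70.2 that stands for HSPA1A and HSPA1B, had 24.6 to 25.9 CPM in VPA and 21.7 to 34.2 in controls (-0.19 ± 0.14, adjusted p = 0.54). Its controls covered the whole VPA range, again with 401 lowest and 408 highest.

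Other J-proteins were negative in 26 of 31 (83.9%, median -0.07), where 49.5% of all tested genes were negative. DNAJC10, an ER J-protein with reductase activity, and DNAJC12, a partner of the aromatic amino acid hydroxylases, had the lowest p of that list (-0.17 ± 0.058 and -0.20 ± 0.082, adjusted p = 0.18 and 0.27). HSP90 co-chaperones were negative in 11 of 15, led by the kinase adaptor CDC37 and the p23 protein gene PTGES3 (-0.10 each, adjusted p = 0.35 and 0.37). Other CCT and prefoldin subunits were negative in 11 of 13, with PFDN5 at -0.14 ± 0.066 (adjusted p = 0.32). Other ER folding genes lay the other way, positive in 16 of 21 (median 0.07). The collagen chaperone gene SERPINH1 stood at 0.20 ± 0.091 (adjusted p = 0.31) and CLGN, a calnexin relative, at -0.25 ± 0.14 (adjusted p = 0.42). In that list VPA 392 was the highest library for 10 of 21 genes.

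Regulators of the unfolded protein response were balanced, with 8 positive and 9 negative of 17 (median -0.03). TRIB3, a pseudokinase gene of that response, had 0.798 to 1.14 CPM in VPA and 1.13 to 2.72 in controls (-1.03 ± 0.39, adjusted p = 0.22), and EDEM1, a factor of ER degradation, stood at 0.20 ± 0.092 (adjusted p = 0.31). HSPA1L, a low HSP70 gene, had 1.67 to 3.07 CPM in VPA and 1.17 to 1.71 in controls (0.81 ± 0.32, adjusted p = 0.24). Heat shock factor regulators were led by SIRT1 and VCP (-0.10 and -0.04, adjusted p = 0.70 and 0.74). Small heat shock proteins were led by HSPB6 and HSPB11 (0.13 and 0.23, adjusted p = 0.54 and 0.69), and mitochondrial proteases by CLPP and AFG3L2 (0.23 and -0.08, adjusted p = 0.38 and 0.50).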

How the data were processed

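Per the file headers, each library came with a table of raw gene counts and one of FPKM, both as the authors deposited them. All 97071 nonzero FPKM values equalled counts over that library's sum and a whole-number length (relative tolerance 0.001), so both units carry 1 measurement. The labels' protocols name TRIzol extraction and a VAHTS kit, with aligner, counter and genome build not given in the sources used here. Reads shared with near-identical copies such as pseudogenes cannot be separated.

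CPM was taken from file totals over all 17201 rows. Counts of all genes were fitted in R 4.3.3 with edgeR 4.0.16 (filterByExpr, TMM, glmQLFit, glmQLFTest, no covariate), which kept 14373 genes. P-values were Benjamini-Hochberg adjusted, and a gene under 0.05 counts as called. SE is the absolute log2 fold change over the square root of F. The fit was also run on simulated data, with means, dispersions and library sizes taken from the real counts. Alternatives were DESeq2 1.42.0, limma 3.58.1 (voom, or trend on log2 FPKM), other filters and scaling, robust dispersion, EIF1AY as covariate and each library left out. The comparison of the 4 libraries with EIF1AY counts was chosen after seeing the data.

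Members and lists were chosen with earlier results of these data known. Every library's value is given for members that passed or whose groups do not overlap and for the highest and lowest of each role by FPKM, and some others were added after seeing their values. Of the related genes, those that passed and the 2 with the lowest p per list are named, beside CCT4, CCT6A, CCT7 and HSP70.2. The labels name separate animals but no litter or batch, and p-values measure the spread between these animals. As VPA was given in gestation and no litter is named, a difference between litters cannot be told apart from one between treatments. All library pairs differed by more than sampling noise (chi-square per degree of freedom 5.74 or more).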

Additional observations from a re-analysis of the deposited data

How the results depend on the processing

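The 52 genes called became 141 without the low-count filter, 168 with robust dispersion, 444 in DESeq2, 30 in limma-voom, 2 in limma on log2(FPKM + 1) and on log2(FPKM + 0.1), 1 without its filter, 344 at an adjusted p of 0.1, and 0 in the 4 libraries with EIF1AY counts. Leaving out 1 library gave 0 to 66. The 0 members called became 1 without the low-count filter, 1 with robust dispersion, 4 in DESeq2, 2 at an adjusted p of 0.1, and 0 to 1 with 1 library left out (HSPH1 without control 401, and HSPH1 was the member called in the first 2 of these). At an unadjusted p of 0.05, 9 members passed. The cause was not tested.

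Members near 0 changed sign. DNAJB9 was -0.0025 with RLE factors, -0.0054 without the filter, -0.00055 with a mean of at least 1 CPM, -0.0030 in DESeq2, -0.0010 in limma-voom and -0.0020 with the EIF1AY covariate. HSPD1 was 0.0074 with library size only, 0.0083 in limma on log2(FPKM + 1) with and without its filter, and 0.0084 with a pseudocount of 0.1. CCT5 was -0.0011 with RLE factors, -0.0038 without the filter and -0.0017 in DESeq2. In the 4 libraries with EIF1AY counts, HSPB1 was -0.077, CCT5 -0.034 and PDIA4 -0.0023. With 1 library left out, values ran from -0.070 to 0.067 for HSF1, -0.12 to 0.019 for HSF2, -0.059 to 0.059 for DNAJB9, -0.041 to 0.13 for HSPB1, -0.20 to 0.097 for CRYAB, -0.043 to 0.039 for HSPD1, -0.068 to 0.010 for CCT3, -0.026 to 0.033 for CCT5, -0.080 to 0.019 for TCP1 and -0.067 to 0.023 for PDIA3. The other 26 tested members kept their sign under all alternatives run. No paired analysis was possible because the animal numbers are not shared between the groups.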
